A study of Mus musculus with 2 samples.

Results

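Short internal exons of the mouse gastrocnemius, a calf muscle, were followed in long-read RNA sequencing of 2 libraries. An exon was taken when it was 3 to 40 nt long, lay between 2 introns of a transcript with known status in the deposited annotation, belonged to a protein-coding gene and had at least 20 informative reads summed over both libraries. A read was informative when its transcript model held the exon between 2 introns (an including read) or had an intron that joined the exon's annotated neighbours (a skipping read). Inclusion is the share of including reads among them. The rule took 875 exons of 671 genes, from 35440 internal exons of any length with that many reads. Of the 5626 short exons in the annotation, 2401 had any informative read. Both libraries come from total RNA of the gastrocnemius of female B6CASTF1/J mice, crosses between C57BL/6J and CAST/EiJ, aged 36 days and untreated as far as the labels say. They form 1 group and carry different female numbers under 1 shared donor entry, so p-values measure only the difference between these libraries. The exons were chosen by their count of informative reads, so that count is a description here.

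Very short exons are often called microexons. Splicing machinery defines an ordinary exon by contacts across it, and a very short exon leaves little room for them, so many microexons need enhancers in the neighbouring introns and helper proteins. In neurons the protein Srrm4 drives the inclusion of many of them, while in muscle the Rbfox, Mbnl, Celf and Rbm families regulate short exons in genes for calcium handling, membrane traffic and transcription. An exon whose length is a multiple of 3 can be taken or left without a change of reading frame.

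The exons on which the results turn are printed below 5′ to 3′ on the transcript's strand from GENCODE M21 transcripts, with mm10 coordinates. Capitals mark the short exon, and lower case marks up to 20 coding bases of the exons spliced to it. The first set holds examples of exons of up to 15 nt. Reads held the Arhgef10l exon and the more 3′ of the Dnm2 exons, and no read held any of the others. Mpc1, Sept7 and Dnm2 each appear with a pair of tiny exons. The exons of each pair precede the same downstream bases, and those of Sept7 and Dnm2 also follow the same upstream bases.
Tnni2 7 nt, chr7:142442691-142442697 (+): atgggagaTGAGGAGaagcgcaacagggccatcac
Mpc1 4 nt, chr17:8293415-8293418 (+): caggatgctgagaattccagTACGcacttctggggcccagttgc
Mpc1 4 nt, chr17:8296527-8296530 (+): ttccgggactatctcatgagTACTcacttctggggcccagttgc
Sept7 5 nt, chr9:25264203-25264207 (+): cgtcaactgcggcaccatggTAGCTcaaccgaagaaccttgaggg
Sept7 5 nt, chr9:25265302-25265306 (+): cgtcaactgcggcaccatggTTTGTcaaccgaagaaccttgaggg
Dnm2 12 nt, chr9:21489910-21489921 (+): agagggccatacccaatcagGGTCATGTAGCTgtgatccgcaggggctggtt
Dnm2 12 nt, chr9:21490658-21490669 (+): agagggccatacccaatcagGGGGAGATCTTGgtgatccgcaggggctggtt
Arhgef10l 15 nt, chr4:140568756-140568770 (-): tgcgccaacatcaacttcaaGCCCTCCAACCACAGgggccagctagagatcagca

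The second set holds exons of 18 to 39 nt, shown because reads with and without them, or a choice between them, were found in both libraries. Mef2a stands beside them as the short exon of a muscle transcription factor. The pair of Myl1 exons leads into the same downstream bases.
Myl1 28 nt, chr1:66934246-66934273 (-): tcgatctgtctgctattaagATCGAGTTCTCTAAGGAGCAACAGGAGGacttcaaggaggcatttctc
Myl1 25 nt, chr1:66934518-66934542 (-): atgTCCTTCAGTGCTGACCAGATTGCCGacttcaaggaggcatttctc
Anxa6 18 nt, chr11:54987051-54987068 (-): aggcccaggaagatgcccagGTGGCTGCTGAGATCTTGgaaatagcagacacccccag
Tmed2 21 nt, chr5:124543487-124543507 (+): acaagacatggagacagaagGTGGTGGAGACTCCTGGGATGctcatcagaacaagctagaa
Mef2a 24 nt, chr7:67244521-67244544 (-): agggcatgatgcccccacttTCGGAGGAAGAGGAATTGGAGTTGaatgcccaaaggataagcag
Trdn 30 nt, chr10:33433701-33433730 (+): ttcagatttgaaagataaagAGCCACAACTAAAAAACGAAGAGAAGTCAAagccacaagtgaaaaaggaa
Ppp3ca 30 nt, chr3:136932011-136932040 (+): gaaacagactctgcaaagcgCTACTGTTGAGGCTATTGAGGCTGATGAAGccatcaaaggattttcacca
Camk2g 33 nt, chr14:20747819-20747851 (-): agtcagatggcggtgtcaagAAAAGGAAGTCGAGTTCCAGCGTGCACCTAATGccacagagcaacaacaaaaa
Mff 33 nt, chr1:82745524-82745556 (+): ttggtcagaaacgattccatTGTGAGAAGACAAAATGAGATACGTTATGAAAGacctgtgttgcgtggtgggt
Mbnl1 36 nt, chr3:60621423-60621458 (+): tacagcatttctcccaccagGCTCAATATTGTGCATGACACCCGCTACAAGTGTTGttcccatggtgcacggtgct
Clta 36 nt, chr4:44031400-44031435 (+): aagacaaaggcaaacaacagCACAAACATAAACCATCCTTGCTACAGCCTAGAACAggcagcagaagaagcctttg
Smyd1 39 nt, chr6:71235343-71235381 (-): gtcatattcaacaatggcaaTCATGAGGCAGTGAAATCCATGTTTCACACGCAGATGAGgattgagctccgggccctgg

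In annotated genes there were 797105 reads in replicate 1 and 1602272 in replicate 2. The median short exon had 22 informative reads in replicate 1 and 34 in replicate 2. In replicate 1, 6 of them had none. Most inclusion values therefore rest on few reads in each library, and exact 95% intervals (Clopper-Pearson) are given for single libraries. Of the 875 exons, 799 lay within coding sequence, 35 held a start or stop codon, 21 lay in 5′ UTRs, 5 in 3′ UTRs and 15 in non-coding transcripts of coding genes. Another annotated internal exon of the gene overlapped 123 of them, and 11 belonged to 2 genes, so their reads are shared.

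Inclusion was mostly near 0 or 100%. Over the summed reads, 689 short exons were over 90% included, 123 were under 10% and 63, or 7.2%, lay from 10 to 90%, the range called alternative use here. Every informative read held the exon in 607 cases and none did in 98. The median was 100%. Of longer exons, 4.48% of 2591 exons of 41 to 60 nt, 2.03% of 16133 exons of 61 to 120 nt and 1.45% of 15840 longer ones were from 10 to 90% included. Exons of different lengths differ in genes and depth, so these shares are descriptions with no test.

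Within the short exons, inclusion changed sharply with length. Of 37 exons of 3 to 15 nt, 35 were under 10% and 34 had no including read. Of 30 exons of 16 to 20 nt, 12 were under 10% and 16 were over 90%. At 21 to 27 nt, 118 of 160 were over 90%, at 28 to 34 nt 238 of 275 and at 35 to 40 nt 316 of 373. No read held any of the 19 exons of up to 11 nt. The shortest exons with including reads were 12 nt long, in Dnm2 and Ampd1, followed by 15 nt in Arhgef10l, and none of the other 34 had one.

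**Figure D1:**
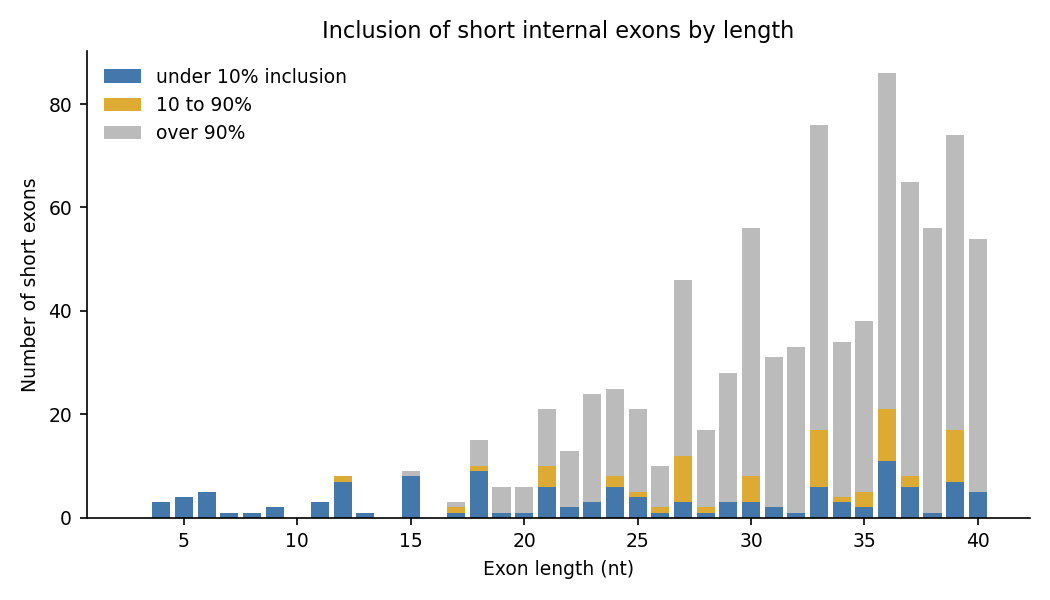
Number of short internal exons (vertical axis) at each exon length in nt (horizontal axis), split by inclusion over the summed reads of both libraries into under 10%, 10 to 90% and over 90%. Under 16 nt, 35 of 37 exons were under 10%, and from 28 to 40 nt 554 of 648 were over 90%.

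The same step was seen among exons that every annotated transcript crossing them holds. At 16 to 27 nt, 97 of 98 such exons were over 90% included, and at 28 to 40 nt 464 of 465. At 3 to 15 nt, all 4 of them were at 0%. The exception at 16 to 27 nt was an 18-nt exon of Atp2a1, which encodes a calcium pump, held by 1 annotated transcript, with 0 of 16 and 0 of 7 reads. The exception at 28 to 40 nt was the 30-nt exon of Trdn. When any intron spanning the exon was counted as skipping, 85 annotated exons of 3 to 15 nt were crossed by at least 20 reads. Of these, 11 were held by every annotated transcript that crossed them, and none of the 11 had an including read.

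Troponin genes of the contractile apparatus made up most of the reads over these 11 exons. Tnni2 encodes the inhibitory troponin subunit of fast fibres. Its 7-nt exon follows the first 8 coding bases and was held by 0 of 4394 informative reads in replicate 1 (upper limit of the 95% interval 0.0839%) and 0 of 7278 in replicate 2 (0.0507%). All these reads joined the end of the 30-nt exon before it directly to the exon after it. The 30-nt exon itself, which holds the start codon, was in 3836 of 3836 and 5682 of 5682 reads. Tnnt3, fast troponin T, has a 14-nt exon that 25 of 27 annotated transcripts hold, and 4930 reads crossed it with none including it. Its slow counterpart Tnnt1 has a 14-nt exon crossed by 241 reads, also with none. The remaining 8 were in Capn2, Capn1, Col6a1, Rwdd4a, Pitpnc1, Pitpnb, Ksr1 and Cir1, crossed by 20 to 92 reads each.

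Few reads of these genes fell into fully annotated models. Known models match an annotated transcript throughout, and models new in the catalog (NIC) join annotated splice sites in an unannotated way. Of 15224 Tnni2 reads, 2.20% were in Known models and 62.4% in NIC models. Of 9613 Tnnt3 reads, 0.333% were in Known models. The files hold transcript models and not the bases of the reads. Whether the molecules lacked these exons, or whether the alignment or the building of models left them out, was not tested.

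The 10 shortest exons, of 4 to 6 nt, all stood at 0% in both libraries. Mpc1 encodes a subunit of the mitochondrial pyruvate carrier, and its pair of 4-nt exons had 0 of 933 and 0 of 929 reads. The annotated intron after the second of them is itself 4 nt long. Tnni1, slow troponin I, had 0 of 5 reads for its 4-nt exon in replicate 1 and 0 of 512 in replicate 2. Phb2, a prohibitin of the inner mitochondrial membrane, had 0 of 311 reads for a 6-nt exon, of which 73 were in replicate 1 and 238 in replicate 2. The septin gene Sept7 had 0 of 136 for each exon of its 5-nt pair. Clip1, a microtubule plus-end protein, had 0 of 108 for a 6-nt exon, Nsfl1c 0 of 28 and 0 of 74 in the 2 libraries for a 6-nt exon, Psap 0 of 26 and Ksr1 0 of 23 for 5-nt exons.

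Most alternative exons had a length that keeps the reading frame. Of the 63 exons from 10 to 90%, 53 (84.1%) had a length divisible by 3, against 423 of all 875 (48.3%). Within coding sequence and at 16 to 40 nt, 49 of 53 alternative exons (92.5%) were a multiple of 3, against 287 of 660 (43.5%) of those over 90%. The share among alternative coding exons was 77.8% of 81 at 41 to 60 nt, 69.0% of 216 at 61 to 120 nt and 59.5% of 153 above that. Among coding exons over 90% it lay between 38.3% and 42.4% in these classes. Seen the other way, 49 of 374 coding exons of 16 to 40 nt that keep the frame were alternative (13.1%), and 4 of 390 that shift it (1.03%).

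**Figure D2:**
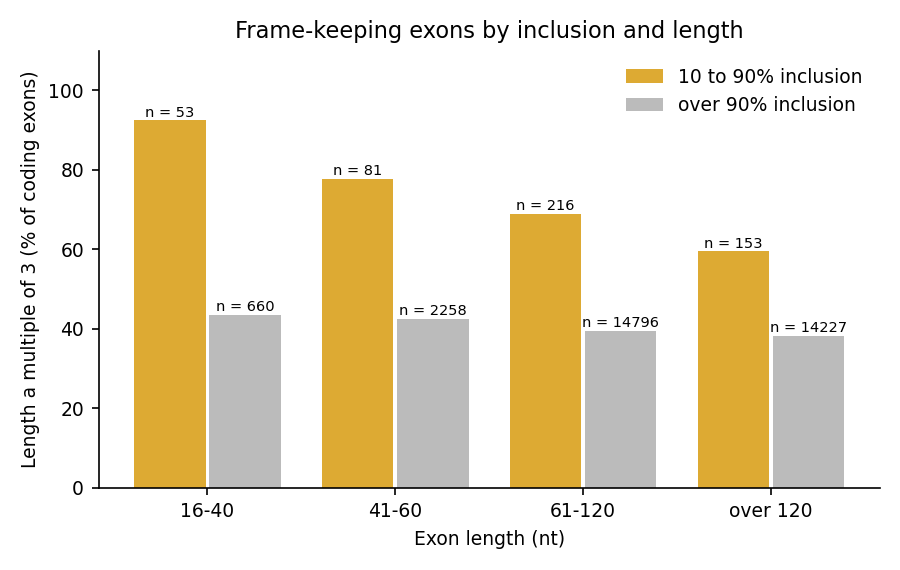
Percent of coding exons whose length is a multiple of 3 (vertical axis) in 4 classes of exon length in nt (horizontal axis), for exons with 10 to 90% inclusion and for exons over 90%; n is the number of exons in each bar. The alternative exons fall from 92.5% at 16 to 40 nt to 59.5% over 120 nt, while those over 90% stay between 38.3% and 43.5%.

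The 4 coding exceptions to the frame were the 28-nt exon of Myl1, a 25-nt exon of Cd47, a 17-nt exon of Pdlim7 and a 34-nt exon of Dlg1. The other 6 alternative exons that shift the frame lay in UTRs (Smpx, Hnrnpc and Mtfr1), held a start or stop codon (Cog1 and Add1) or belonged to a non-coding transcript (Ndel1). Dlg1, Hnrnpc, Mtfr1, Cog1 and Add1 were named after their values were seen.

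Myl1 showed how a frame-shifting exon can be exchanged. The gene encodes the alkali light chains of fast myosin, a long form and a short form made from separate promoters, each of which uses its own small second exon. The 28-nt exon, of the long form, was in 3541 of 15501 informative reads in replicate 1, or 22.8% (22.2 to 23.5), and in 6831 of 31198 in replicate 2, or 21.9% (21.4 to 22.4), a mean of 22.4% ± 0.67 (SD, n = 2). Nearly all skipping reads joined the 25-nt exon, of the short form, to the same common exon. Of models holding either exon, 77.2% ± 0.693 of reads (SD, n = 2) held the 25-nt exon alone, 19.4% ± 0.948 the 28-nt exon alone and 3.34% ± 0.26 both. Reads with both numbered 481 in replicate 1 and 1081 in replicate 2. The lengths differ by 3 nt, so either exon alone leaves the common exon in the same frame, whereas both together do not. Measured against its own neighbours, the 25-nt exon was included in 99.9% of reads in each library.

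**Figure D3:**
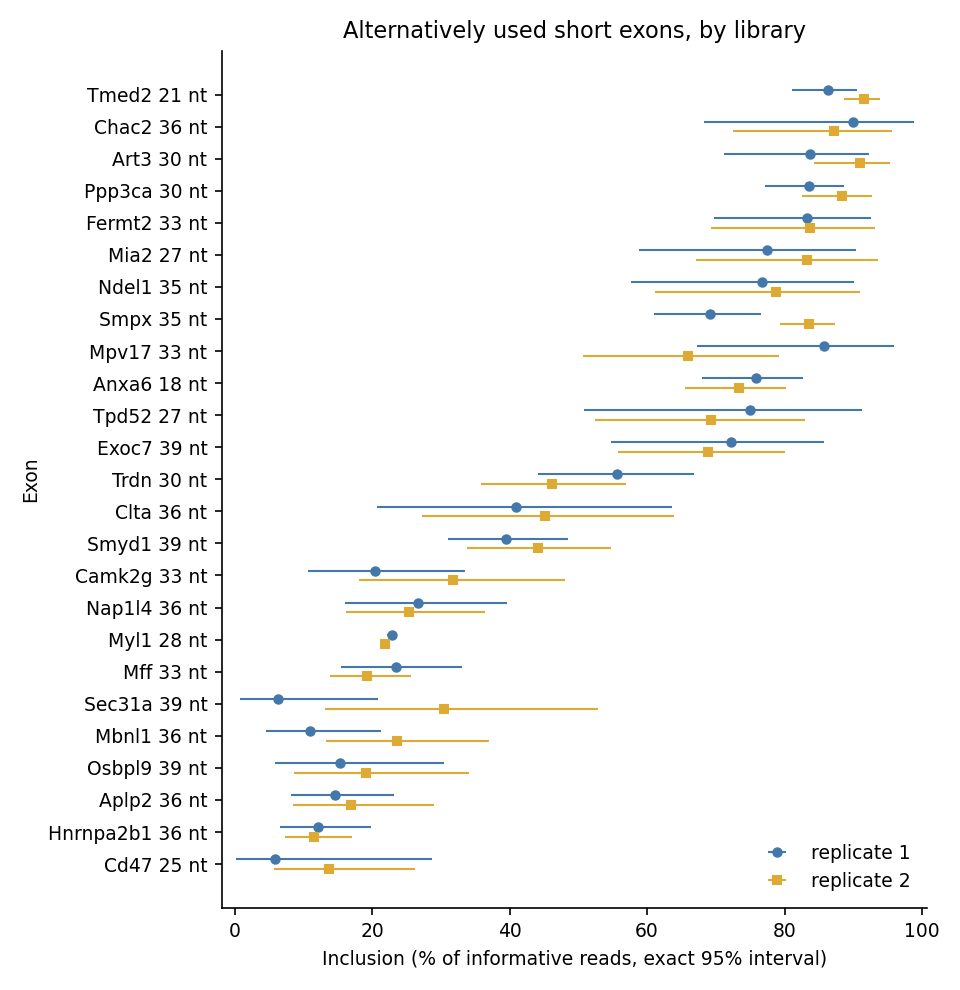
Inclusion in percent of informative reads (horizontal axis) of the 25 alternatively used short exons with the most reads (vertical axis), with exact 95% intervals, in replicate 1 (circles) and replicate 2 (squares). The values run from 9.80% (Cd47, 11.8% over summed reads) to 88.9% (Tmed2) as means. The intervals of the libraries overlap for every exon except the 35-nt exon of Smpx.

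Measured against annotated neighbours, genes of the sarcomere and Z disc included their short exons almost throughout. Of 20 exons in 10 of the genes listed, 18 were over 90%, 1 was alternative and 1 was under 10%, the 11-nt exon of Tnnt1. The median of the list was 100%, as it was over all 35440 internal exons, of which 94.5% were over 90%. Mybpc2, the fast myosin-binding protein C, had its 30-nt exon in 4661 of 4661 and 2263 of 2263 reads. Pdlim7, a PDZ and LIM protein of the Z disc, was the alternative one. Its 17-nt exon was in 3 of 6 reads in replicate 1 and 8 of 21 in replicate 2, a mean of 44.1% ± 8.42. When every spanning intron was counted as skipping, inclusion was 0.661%. Over summed reads, that count also put the 19-nt exon of Tnnt3, held by 8 of 8 and 18 of 18 informative reads, at 0.532%. The 35-nt exon of Tnnt3 stood at 81.6% and a 22-nt exon of Tnnt1 at 53.9%, whereas the Mybpc2 exon stayed at 99.8%. Only 2 of the 12 annotated short exons of Tnnt3 had enough informative reads to be taken. Smyd1 is a methyltransferase of muscle that works in myosin assembly. Its 39-nt exon was in 51 of 129 reads in replicate 1 (39.5%, 31.0 to 48.5) and 41 of 93 in replicate 2 (44.1%, 33.8 to 54.8), a mean of 41.8% ± 3.22. Reads with and without it were both common, and the libraries overlapped.

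In the calcium and excitation list, 21 of 28 short exons were over 90%, 2 were alternative and 5 were under 10%, with a median of 100%. Trdn, which encodes triadin, a protein that anchors calsequestrin to the calcium release channel, held 18 of the 28 and 17 of the 21 over 90%. All 5 under 10% lay in other genes, so the median of the list mainly describes Trdn. Trdn held more short exons than any other gene, 18, of 18 to 39 nt and all multiples of 3. Of these, 17 were over 90% and 1 stood between the extremes. That 30-nt exon was in 44 of 79 reads in replicate 1 (55.7%, 44.1 to 66.9) and 43 of 93 in replicate 2 (46.2%, 35.8 to 56.9), a mean of 51.0% ± 6.69, and the libraries overlapped. No annotated transcript skips it. The 33-nt exon nearest the 5′ end was in 95.2% of 525 and 93.9% of 1015 reads, and a 24-nt exon further on was in 72 of 75 and 80 of 88 reads.

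Long reads show which exons share a molecule. In Trdn the 30-nt and 24-nt exons were both on 40 reads in replicate 1 and 32 in replicate 2, and the 24-nt exon alone was on 31 and 41. The 30-nt exon without the 24-nt exon was on 3 reads in each library. Informative reads dropped along the gene, from 152 and 222 at the seventh short exon to 79 and 93 at the eighth.

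**Figure D4:**
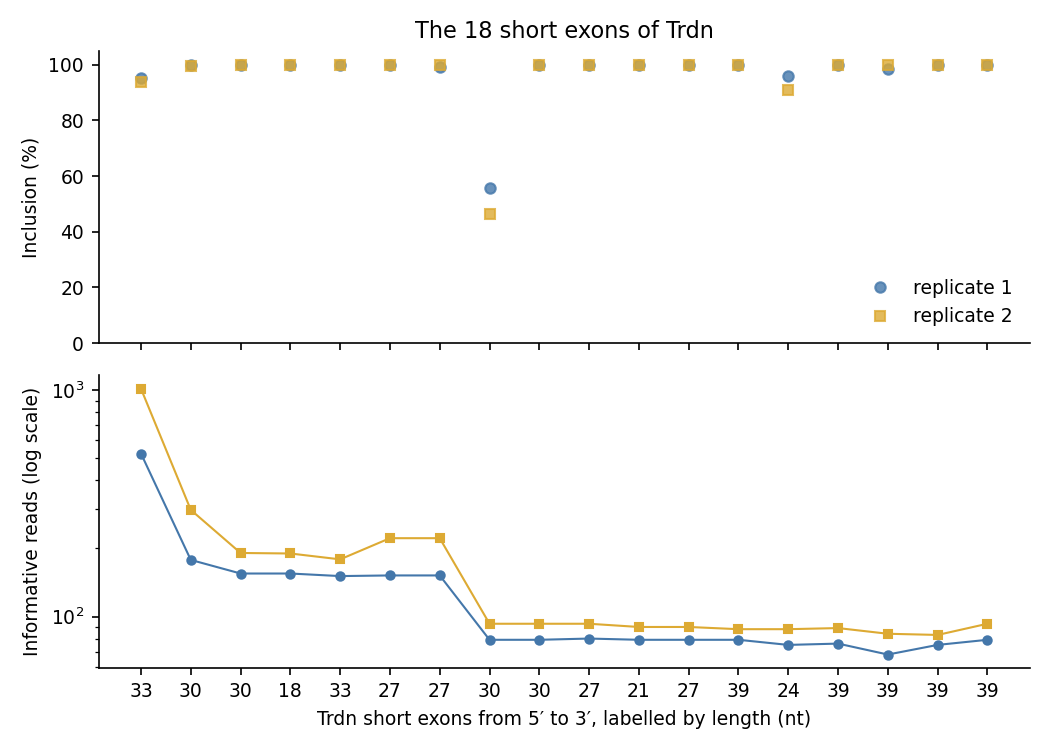
Inclusion in percent (upper panel) and number of informative reads on a log axis (lower panel) of the 18 short exons of Trdn, from 5′ to 3′ and labelled by their length in nt, in replicate 1 (circles) and replicate 2 (squares). One exon, of 30 nt, stands at 55.7% and 46.2%, and the other 17 are over 90% in both libraries.

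Camk2g is a subunit of calmodulin-dependent kinase II, whose isoforms differ in the linker between kinase and hub. Its 33-nt exon was in 11 of 54 reads in replicate 1 (20.4%, 10.6 to 33.5) and 13 of 41 in replicate 2 (31.7%, 18.1 to 48.1), a mean of 26.0% ± 8.02. The 33-nt exon of its paralog Camk2b was in 0 of 32 reads. The exons of this list under 10% were, besides Camk2b and the 18-nt exon of Atp2a1, a 21-nt exon of Cacna2d1 (0 of 32 reads), a calcium channel subunit, a 37-nt exon of Stim1 (0 of 50), the calcium sensor of the reticulum, and an 18-nt exon of Ryr1 (0 of 39). Ryr1 encodes the calcium release channel itself, and 3 annotated transcripts hold that exon against 1 that skips it.

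Calcineurin, a calcium-dependent phosphatase, had short exons in 3 of its catalytic subunit genes. The 30-nt exon of Ppp3ca was in 147 of 176 reads in replicate 1 (83.5%, 77.2 to 88.7) and 151 of 171 in replicate 2 (88.3%, 82.5 to 92.7), a mean of 85.9% ± 3.38. The 30-nt exons of Ppp3cb (70 of 71 reads) and Ppp3cc (27 of 28) were over 90%. Ppp3cc has a further 27-nt exon, in 3 of 5 and 15 of 21 reads, a mean of 65.7% ± 8.08.

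Among membrane traffic genes, 4 of 11 short exons in 7 genes were over 90%, 4 were alternative and 3 were under 10%, with a median of 43.4%. Over all short exons the shares were 78.7%, 7.2% and 14.1%. Of the 3 under 10%, 2 were 12 nt long, within the lengths that were under 10% in 35 of 37 cases, and of the 8 exons of at least 16 nt 1 was under 10%. The reads behind each were few. Clta, the clathrin light chain A, had its 36-nt exon in 9 of 22 reads in replicate 1 (40.9%, 20.7 to 63.6) and 14 of 31 in replicate 2 (45.2%, 27.3 to 64.0), a mean of 43.0% ± 3.01. Snap23, a protein of membrane fusion, had its 33-nt exon in 17 of 18 and 32 of 34 reads.

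Dnm2 encodes dynamin 2, which cuts vesicles from membranes and acts at the T-tubules of muscle. Its 30-nt exon was in 8 of 21 and 10 of 19 reads, a mean of 45.4% ± 10.3, although 0 of 17 reads in Known models held it. The 3′ exon of its 12-nt pair was in 6 of 21 and 3 of 19 reads, a mean of 22.2% ± 9.04. The other 12-nt exon was in 0 of 31 reads. Over the same molecules, 8 reads of replicate 1 and 10 of replicate 2 held the 30-nt exon only, 6 and 3 the 12-nt exon only, 7 and 6 neither, and no read both. This is a count over 40 reads, with no test. The counts for neither exon and for the 30-nt exon only rest on transcript models that lack the 12-nt exon. The absence of reads with both rests on the same models. Whether the alignment or the building of models left the 12-nt exon out of some of these reads was not tested.

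Mitochondrial fission depends on Dnm1l, a dynamin, and Mff, its receptor on the outer membrane. Dnm1l had a 39-nt exon in 4 of 18 and 3 of 22 reads, a mean of 17.9% ± 6.07, and a 33-nt exon in 3 of 18 and 1 of 24, a mean of 10.4% ± 8.84. Over summed reads, by which exons were classed, the 33-nt exon stood at 9.52% and counts as under 10%. Reads without either exon made up 12 of 18 in replicate 1 and 18 of 21 in replicate 2, and 1 read held both. The 33-nt exon of Mff was in 23 of 98 reads in replicate 1 (23.5%, 15.5 to 33.1) and 36 of 187 in replicate 2 (19.3%, 13.9 to 25.6), a mean of 21.4% ± 2.98. No Known model held it, although 2 annotated transcripts do.

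Other traffic genes outside the list had alternative exons as well. Tmed2, a cargo receptor between the reticulum and the Golgi, had a 21-nt exon in 189 of 219 reads in replicate 1 (86.3%, 81.0 to 90.6) and 431 of 471 in replicate 2 (91.5%, 88.6 to 93.9), a mean of 88.9% ± 3.68. Exoc7, a subunit of the exocyst, had a 39-nt exon in 72.2% of 36 and 68.9% of 61 reads. Mia2, an exit-site protein of the reticulum, had a 27-nt exon in 77.4% of 31 and 83.3% of 36 reads. Sec31a, of the coat of vesicles leaving the reticulum, had a 39-nt exon in 2 of 32 reads in replicate 1 and 7 of 23 in replicate 2. Without incomplete splice match models, which hold part of a chain of introns, and Genomic models its mean was 29.8%, against 18.3% over all models. Another 39-nt exon of the gene was on all 31 reads that covered both.

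Regulators of transcription and RNA had the lowest median of these lists. Of 7 short exons in as many genes, 3 were under 10%, 2 were alternative and 2 were over 90%, with a median of 11.8%. Over all short exons the median was 100%, with 14.1% under 10%, 7.2% alternative and 78.7% over 90%. The genes were listed with earlier results of these data known, so the low median describes the list only. The Mef2 transcription factors of muscle differed among themselves. Mef2a had its 24-nt exon in 42 of 42 reads in replicate 1 and 11 of 14 in replicate 2, and Mef2d had its 21-nt exon in 46 of 47 and 23 of 25, whereas the 24-nt exon of Mef2c was in 1 of 84 and 0 of 80. Mef2d and Mef2c therefore stood at opposite ends in both libraries. Mef2a did so against Mef2c in replicate 1, but in replicate 2 its 14 reads gave 78.6% (49.2 to 95.3), within the alternative range.

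Mbnl1 encodes muscleblind, itself a splicing regulator. Its 36-nt exon was in 7 of 64 reads in replicate 1 (10.9%, 4.51 to 21.3) and 13 of 55 in replicate 2 (23.6%, 13.2 to 37.0), a mean of 17.3% ± 8.98. Without incomplete splice match and Genomic models, which left 4 of 46 and 3 of 28 reads, the mean was 9.71%, outside the alternative range. The 36-nt exon of its paralog Mbnl2 was in 0 of 27 reads. Hnrnpa2b1, an RNA-binding protein of the nucleus, had its 36-nt exon in 13 of 107 reads (12.1%, 6.63 to 19.9) and 21 of 182 (11.5%, 7.29 to 17.1), a mean of 11.8% ± 0.432. The 21-nt exon of Eif4g1, a translation initiation factor, was in 0 of 46 reads.

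In the signalling list 12 of 14 short exons were over 90% and 2 were alternative, with a median of 100%. The alternative ones were the 27-nt exon of Ppp3cc and a 27-nt exon of Mtmr3, a phosphoinositide phosphatase, in 16 of 19 and 10 of 12 reads. Arhgef10l held the shortest exon that was mostly included, with 15 nt in 13 of 14 reads in replicate 1 and 9 of 10 in replicate 2, a mean of 91.4% ± 2.02. In the list of cytoskeleton and adhesion genes 3 of 5 were over 90% and 2 were under 10%: an 18-nt exon of the kinesin Kif1b (0 of 97 reads) and a 15-nt exon of Dctn1 (0 of 231), a subunit of dynactin. A 21-nt exon of Dctn1 was in all 99 informative reads. It stood at 50.5% when every spanning intron was counted as skipping, and 2 annotated transcripts skip it.

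Further alternative exons lay in genes of varied function. Anxa6, a calcium-dependent membrane-binding annexin, had an 18-nt exon in 107 of 141 reads in replicate 1 (75.9%, 68.0 to 82.7) and 110 of 150 in replicate 2 (73.3%, 65.5 to 80.2), a mean of 74.6% ± 1.81. Fermt2, an activator of integrins, had a 33-nt exon in 83.3% of 48 and 83.7% of 43 reads. Aplp2, a relative of the amyloid precursor, had a 36-nt exon in 14.6% of 96 and 17.0% of 59 reads, and in 3.78% as a mean over Known models only. Mpv17, of the inner mitochondrial membrane, had a 33-nt exon in 85.7% of 28 and 66.0% of 47 reads.

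The lipid-transfer protein gene Osbpl9 had a 39-nt exon in 15.4% of 39 and 19.0% of 42 reads. Nap1l4, a histone chaperone, had a 36-nt exon with a start or stop codon in 26.7% of 60 and 25.3% of 79 reads. The 27-nt exon of Tpd52 was in 15 of 20 and 27 of 39 reads, and the 36-nt exon of Chac2 in 18 of 20 and 34 of 39. Cd47, a surface protein that restrains phagocytes, had its 25-nt exon in 1 of 17 and 7 of 51 reads, and the 35-nt exon of Ndel1 was in 23 of 30 and 26 of 33. None of these 6 differed between the libraries beyond their overlapping intervals.

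Art3, a surface ADP-ribosyltransferase of muscle, had 7 short exons. A 30-nt one was alternative, with 46 reads holding it and 9 skipping it in replicate 1, and 110 and 11 in replicate 2, a mean of 87.3% ± 5.14. Of the others, 4 were over 90% and 2, which overlap each other, were under 10%. Ktn1, which encodes kinectin, also had 7, of 35 and 38 nt, none a multiple of 3, and every read held them. Collagen genes had 15 short exons, of which 11 were a multiple of 9 nt, 7 of them with 36 nt and 4 with 27 nt, against 138 of 860 in other genes. The repeating triplet of collagen chains is written in 9 bases. Every read held 14 of these 15, and the other, a 17-nt exon of Col4a1, was at 0%. The collagen genes, and Atp5c1 below, were named after their values were seen.

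Among short exons over 15 nt, 88 were under 10%. The one with the most reads was a 37-nt exon with a start or stop codon in Atp5c1, the gamma subunit of ATP synthase, known as an exon that muscle leaves out. It was in 9 of 586 reads in replicate 1 (1.54%, 0.705 to 2.90) and 21 of 2207 in replicate 2 (0.952%, 0.59 to 1.45), a mean of 1.24% ± 0.413. A 35-nt exon of the same gene was in all reads of both libraries, 481 and 1777.

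Of the 10 short exons with the most reads, the 7-nt exon of Tnni2 was at 0% and the 28-nt exon of Myl1 was alternative. The other 8 were nearly constant against their annotated neighbours. These include the 25-nt exon of Myl1, which is exchanged with the 28-nt exon. It stood at 78.9% when every spanning intron was counted as skipping, whereas the rest stood at 99.2% (Myh4) or more. The 37-nt exon of Hrc, a calcium-binding protein of the reticulum, was in 2531 of 2532 and 9960 of 9960 reads. Both short exons of Ak1, an adenylate kinase, the 28-nt exon of Myh4, the myosin heavy chain of fast glycolytic fibres, and the 25-nt exon of Selenow, a selenoprotein, were held by all reads apart from 1 of Ak1. At the threshold of 20 reads stood a 31-nt exon (20 of 20) and a 24-nt exon (10 of 20) of Herc4, and just outside it, with 19 reads each, a 36-nt exon of Col6a2 and a 37-nt exon of Appl2, both included in all 19.

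What the annotation says of an exon went with its use. Of exons of 16 to 40 nt that some annotated transcript skips, 66 of 111 held by a single annotated transcript were under 10%, against 21 of 164 held by more than 1. Inclusion did not require a fully annotated model. Of 721 short exons with at least 50% inclusion, 66 had no including read in a Known model, among them 17 of the 18 exons of Trdn and those of Tmed2, Fermt2, Mtmr3 and Arhgef10l. For Tmed2 the Known models gave 0 of 70 reads, whereas over all models 620 of 690 reads held the exon. Known models alone also gave lower means for Mia2 (30%), Cd47 (2.63%) and the 33-nt exon of Dnm1l (2.63%), and 0 reads with the exon for Ndel1, of 10. They gave higher means for the 17-nt exon of Pdlim7 (77.3%), the 12-nt exon of Dnm2 (34.7%) and Osbpl9 (27.8%). These means rest on few reads. Informative reads in Known models, summed over the libraries, were 6 for Mia2, 27 for Cd47 and 33 for Dnm1l. They were 12 for Pdlim7, 17 for Dnm2 and 40 for Osbpl9. With 1 Known read in a library, the means of Mia2 and Pdlim7 differ from their summed values of 50% and 58.3%.

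No short exon passed the test between the libraries. Of the 432 short exons with at least 20 informative reads in each library, 0 were called different by Fisher's exact test (two-sided, Benjamini-Hochberg adjusted over all 17720 internal exons tested, adjusted p under 0.05 and at least 10 points). Of all 17720 internal exons, 0.0226% were called, 0.0113% higher and 0.0113% lower in replicate 2. At an unadjusted p under 0.05 there were 6 short exons: Myl1 28 nt, Tmed2, Smpx, Phka1, Mapk12 and Sec31a. The difference was within 5 points for 412 exons and within 10 points for 427, and the widest was 24.2 points (Sec31a). Of these 432, 25 were alternative, and 15 of the 25 were within 5 points. Depth limits this, as the intervals of exons near 20 reads in a library show.

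Smpx, a small protein of striated muscle, had the smallest p. Its 35-nt exon in the 3′ UTR was in 101 of 146 reads in replicate 1 (69.2%) and 296 of 354 in replicate 2 (83.6%), with an unadjusted p of 0.00041 and an adjusted p of 0.727 by Fisher's exact test. With incomplete splice match and Genomic models left out, 1 short exon was called, the 33-nt exon of Trdn, in 106 of 115 reads in replicate 1 (92.2%) and 127 of 183 in replicate 2 (69.4%), with an adjusted p of 0.003975 by Fisher's exact test. With all models these values were 95.2% and 93.9%.

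Introns around alternative short exons were longer at the median, with no test. Each length is that of the shortest annotated intron on that side, which need not be the one the reads used. At 16 to 40 nt, the median upstream and downstream introns of the 62 alternative exons were 2110 and 1774 nt, with quartiles of 660 to 5610 and 688 to 3849 nt. Around the 688 exons over 90% they were 984 and 825 nt, with quartiles of 310 to 2614 and 256 to 1996 nt. At 41 to 60 nt the medians were 1848 and 1901 nt for alternative exons and 939 and 878 nt for those over 90%, so the same order held for longer exons. GC content differed little, with medians of 47.6% and 47.3% at 16 to 40 nt, and 48.4% and 52.0% of these exons ended in AG.

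Of 29 known regulators of short exons, 20 had enough reads to be tested between the libraries, in CPM, the scaling of counts to reads in annotated genes. None was called higher in replicate 2 and 3 were called lower by Fisher's exact test at an adjusted p under 0.05 and at least 2-fold. Of all 8096 genes tested, 5.78% were called higher and 5.47% lower. The 3 were Rbfox1 (62.7 and 31.2 CPM), Mbnl2 (230 and 67.4 CPM) and Celf2 (59.0 and 27.5 CPM), members of the families known for muscle splicing. Rbm24 stood at 200 ± 12.2 CPM (SD, n = 2), Rbm38 at 175 ± 23.6, Mbnl1 at 78.6 ± 22.0 and Qki, which the files name Qk, at 77.0 ± 4.15. Srrm3 and Srrm4, the neuronal regulators, had 0 reads in both libraries, where 3 reads would be 3.76 and 1.87 CPM. Ptbp1, a repressor of many short exons, had 2 and 6 reads. Whether these levels bear on the inclusion values was not tested.

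Markers placed the RNA in skeletal muscle. All 6 muscle markers (Ckm, Acta1, Myh4, Tnnt3, Atp2a1 and Myh1) had reads, and their summed level was 290100 and 168300 CPM. Some fibre-type genes stood apart between the libraries. Myh1, a fast heavy chain, was at 80.3 and 758 CPM and slow troponin I (Tnni1) at 7.53 and 361 CPM. Atp2a1 was at 110000 and 30170 CPM. Other genes of fast fibres were not called different. Replicate 2 over replicate 1 was 0.602-fold for Myh4, 1.14-fold for Tnnt3, 0.904-fold for Tnni2 and 1.04-fold for Myl1. The 6 neuron markers summed to 3.76 and 6.24 CPM, with Snap25, Tubb3 and Srrm4 at 0, and 4 heart markers to 1.25 and 2.50 CPM, with Nppa at 0. Other cell types were present and differed between the libraries: 3 Schwann cell markers at 207 and 78.0 CPM, 2 blood markers at 2061 and 455 CPM and 2 adipocyte markers at 378 and 67.4 CPM. In bulk tissue fewer cells of a type and less RNA per cell cannot be told apart. The part of these cells in any inclusion value was not tested.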

How the data were processed

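Both libraries, of 1 group, were read as long molecules. The authors deposited raw whole-number counts of reads for every transcript model, with a model annotation beside them. Per the README of the deposit, both refer to mm10 and GENCODE M21, and the model classes are those of TALON. Aligner, read correction, filters and versions: not given in the sources used here. Libraries were not pooled or normalized, and their tables held 853589 and 1748822 reads.

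Internal exons were read from transcripts of known status in protein-coding genes, and each model's reads were counted as including or skipping within the exon's gene. An exon's neighbours were all splice sites that annotated transcripts join to it. Libraries were compared by Fisher's exact test over 17720 internal exons, and genes by the same test on counts. Levels in CPM were computed from the deposited counts over reads in annotated genes. Exons were named by rule: the 10 shortest, the 25 alternative ones with the most reads, the 10 with the most reads, those at the threshold, and those of listed genes from 5 to 95%. Any other exon named was chosen after its values were seen. The members, gene lists and settings were chosen with earlier results of these data known. Reads carry no molecular identifiers here, so intervals cover counting error only. Intron motifs were not searched, since no genome sequence was used here. Alternatives varied the read minimum, model classes, skipping rule, inclusion range and library. Software was Python 3.11.15, pandas 2.3.3, scipy 1.17.1 and numpy 2.4.6.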

Additional observations from a re-analysis of the deposited data

How the results depend on the processing

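The number of short exons was 1201 at a minimum of 10 reads, 489 at 50 and 498 to 613 with 1 library left out. It was 1004 when any spanning intron counted as skipping. The 63 alternative exons became 94 at a minimum of 10 reads, 27 at 50 and 25 with Known models only. With 1 library left out they were 31 to 39. They were 54 without incomplete splice match and Genomic models, 82 at 5 to 95% inclusion and 85 with any spanning intron. The 35 exons of 3 to 15 nt under 10% became 52 at a minimum of 10 reads, 20 at 50 and 15 with Known models only. With 1 library left out they were 19 to 23. With any spanning intron they were 83, a setting that also put the median inclusion at 99.4%. Fewer exons reach a higher minimum, or the minimum in 1 library, by construction. The percent of alternative exons that are a multiple of 3 was 77.7 at a minimum of 10 reads, 85.2 at 50, 88.0 with Known models only, 81.5 without incomplete splice match and Genomic models, 75.3 with any spanning intron, 84.2 at 5 to 95% inclusion and 76.9 to 90.3 with 1 library left out. Settings for that percent, for the exons of 3 to 15 nt, and for the number of exons by skipping rule and library were chosen after seeing the data. Of the settings tried for calls between libraries, leaving out incomplete splice match and Genomic models gave 1 call, and the others gave 0; the cause was not tested.

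Of the named exons, Known models only moved 11 of 42 by over 10 points, most for Tmed2 (88.9% to 0%). Leaving out incomplete splice match and Genomic models moved 2 of 58, most for Trdn 33 nt (94.6% to 80.8%). Any spanning intron moved 2 of 58, Pdlim7 (44.1% to 0.661%) and Myl1 25 nt (99.9% to 78.9%). Exons outside these 58 also moved under that rule, over summed reads. Among them were Tnnt3 19 nt (100% to 0.532%), Car14 22 nt (95.9% to 18.9%) and Myl6 20 nt (100% to 21.2%). Leaving out 1 library moved Sec31a from 18.3% to 6.25% or 30.4%. No paired analysis was possible because the libraries form 1 group.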
